A study of Mus musculus with 20 samples.

Results

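Mitochondrial fission and fusion are followed here through 10 genes of the mouse heart, chosen by name. They are the fusion GTPases Mfn1, Mfn2 and Opa1, the fission genes Dnm1l, Fis1, Mff, Mief1 and Mief2, and the inner membrane proteases Oma1 and Yme1l1. Each was found as 1 row among the 25052 genes listed, and all 10 were among the 12775 genes with enough signal to be tested (at least 0.5 FPKM in at least 5 libraries). FPKM count fragments relative to transcript length and library total, so levels of different genes can be compared.

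Mitochondria of most cells fuse and divide continually. Mitofusins, the products of Mfn1 and Mfn2, join the outer membranes of neighbouring organelles, and OPA1 joins the inner membranes and shapes the cristae. Fission is carried out by DRP1, the dynamin-related GTPase encoded by Dnm1l, which assembles on the outer membrane at adaptors encoded by Mff, Mief1, Mief2 and Fis1. The proteases OMA1 and YME1L cut OPA1, and OMA1 becomes active when mitochondria are stressed. In adult heart muscle the organelles lie packed between myofibrils, and loss of mitofusins, OPA1 or DRP1 from mouse heart muscle is known to impair cardiac function.

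Poly(A) RNA of the left ventricle came from 20 male mice, 5 in each of 4 groups. The iKO mice were ACC2f/f-MCM+, with both alleles of Acacb (the gene of acetyl-CoA carboxylase ACC2) floxed and with MerCreMer, a Cre recombinase switched on by tamoxifen. WT here means ACC2f/f littermates, in which the alleles are floxed too but MerCreMer is lacking. At an age of 8 weeks every mouse was given 5 days of tamoxifen at 20 mg/kg. After 4 more weeks the mice went on a high-fat diet (HFD, formula D12492) or on chow for 16 weeks, which gave iKO on HFD, WT on HFD, iKO on chow and WT on chow. The promoter that drives MerCreMer is not given in the sources used here, and no group had MerCreMer without floxed alleles, so effects of ACC2 loss and of the transgene cannot be told apart.

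The libraries matched their genotype labels, while the diet labels were not checked. Acacb lay between 8.37 and 11.92 FPKM in the 10 iKO libraries, against 34.9 to 41.92 FPKM in the 10 WT libraries. Esr1, part of whose sequence is in MerCreMer, was at least 421.27 FPKM in iKO libraries and at most 2 FPKM in WT libraries. Assigned reads, estimated from the steps between low FPKM values, numbered 12.5 to 31.9 M per library. They did not overlap between diets in WT, at 23.98 to 31.91 M on HFD and 19.58 to 22.82 M on chow. In iKO they overlapped, at 20.47 to 29.44 M on HFD and 12.53 to 24.23 M on chow. The part of depth in the diet comparisons was not tested. All 7 cardiomyocyte markers were detected in a sum of 19810 to 29130 FPKM. Of the markers of other cells, Cd3e, Plin1, Lep, Retn and Slc4a1 stayed under 0.5 FPKM in every library. In bulk tissue, fewer cells of a type and less RNA per cell cannot be told apart. Chow hearts have the library numbers RT1 to RT10 and HFD hearts RT11 to RT20, so an effect of diet and one of numbering run cannot be told apart.

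The mitofusin transcripts were the most abundant of the 10. In WT hearts on chow, Mfn2 averaged 176.0 FPKM ± 5.16 and Mfn1 98.7 ± 2.66 (SD, n = 5). The adaptor genes Mff and Fis1 followed at 67.2 ± 3.69 and 65.4 ± 3.08 FPKM. Opa1 stood at 51.2 ± 1.31 and Dnm1l at 33.0 ± 1.60 FPKM. The proteases were lower, Yme1l1 at 18.3 ± 1.36 and Oma1 at 14.2 ± 0.894 FPKM. The paralogous adaptors Mief2 and Mief1, which recruit DRP1 to the outer membrane, were the lowest at 11.99 ± 1.14 and 4.58 ± 0.166 FPKM. This order was almost fixed. Of the 9 steps between neighbours, 7 held in all 20 libraries. Mff exceeded Fis1 in 15 of 20 libraries, and Oma1 exceeded Mief2 in 19 of 20 and equalled it in the other, so that these neighbours did not separate beyond their spread. Mfn2 exceeded Mfn1 by 1.65-fold to 1.91-fold in single libraries, and Mief2 exceeded Mief1 by 2.16-fold to 3.67-fold. Over all 20 libraries the coefficient of variation ran from 4.25% for Dnm1l to 9.97% for Fis1.

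**Figure D1:**
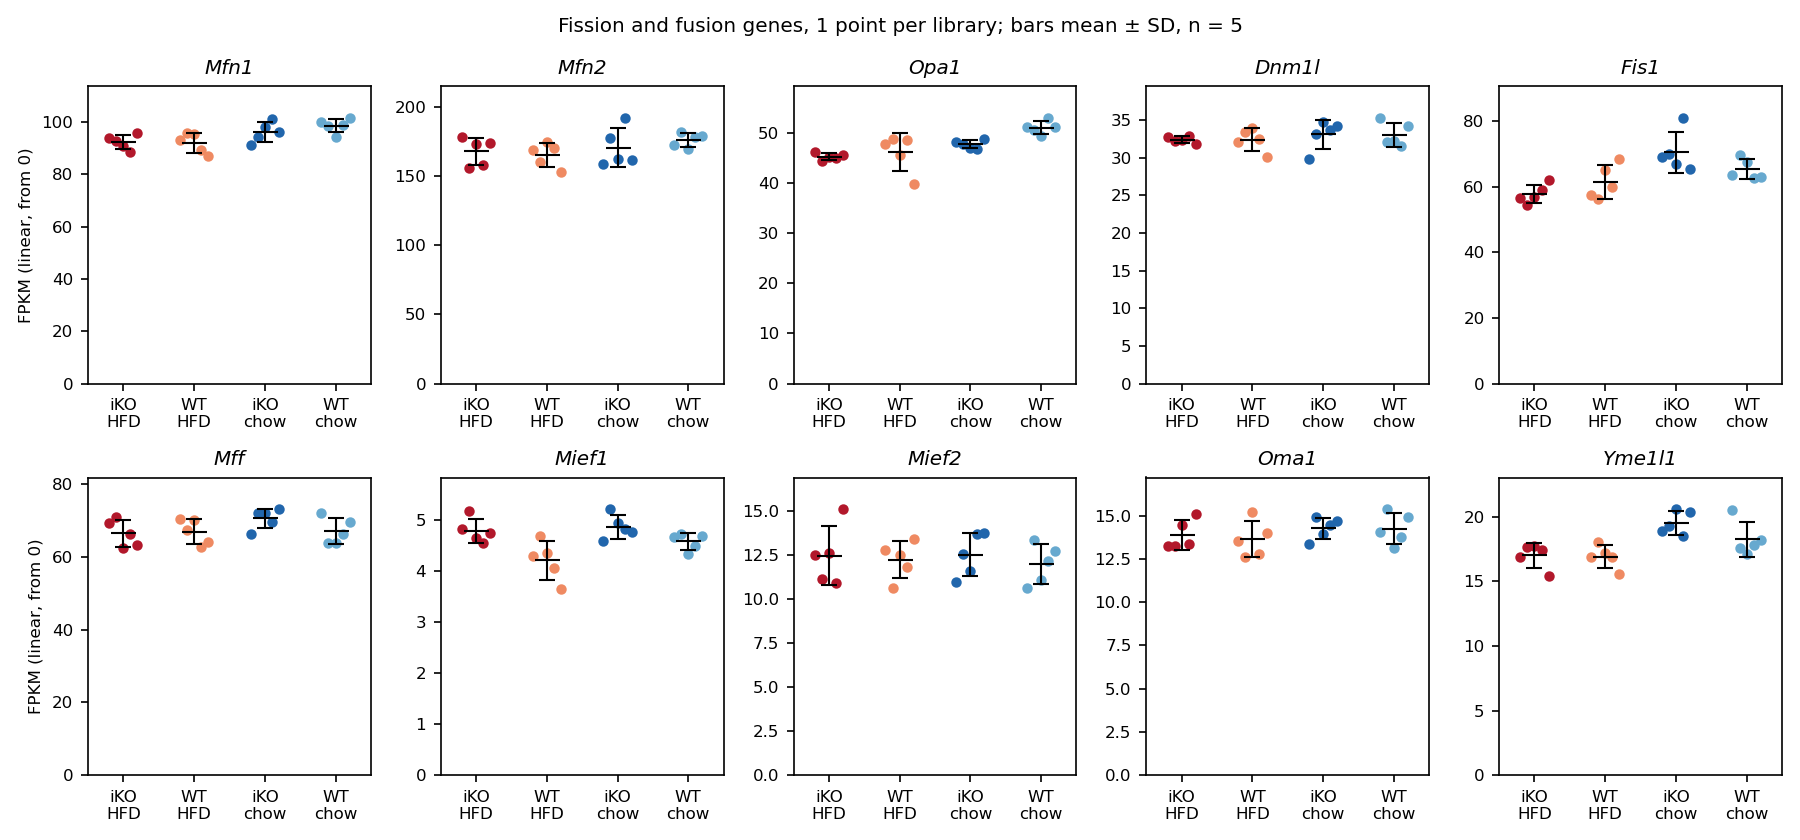
FPKM of the 10 genes (linear axes from 0) in each library of iKO and WT hearts on HFD and on chow, with points for libraries and bars for mean ± SD, n = 5 per group. In FPKM as deposited, Opa1 in WT on chow (49.47 to 53.1 FPKM) lay above all 15 other libraries. The share of all genes that separate 5 libraries from 15 in this way was not computed. Fis1 in iKO on HFD (54.47 to 62.06 FPKM) lay below all 5 libraries of iKO on chow. Between diets in iKO, 7.8% of all genes tested had groups that did not overlap.

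The 10 genes are listed as ENSMUSG00000027668.13 (Mfn1), ENSMUSG00000029020.13 (Mfn2), ENSMUSG00000038084.16 (Opa1), ENSMUSG00000022789.14 (Dnm1l), ENSMUSG00000019054.13 (Fis1), ENSMUSG00000026150.14 (Mff), ENSMUSG00000022412.12 (Mief1), ENSMUSG00000018599.5 (Mief2), ENSMUSG00000035069.3 (Oma1) and ENSMUSG00000026775.9 (Yme1l1). They are spread over 8 chromosomes of GRCm38, placed there by gene ID. Mfn2 (chromosome 4, 147873599 to 147904704, minus strand) shares a chromosome with Oma1 (103313812 to 103371868, plus strand). Opa1 (chromosome 16, 29579334 to 29654884, plus strand) shares one with Dnm1l (16312230 to 16358959, minus strand). Mfn1 lies on chromosome 3 (32529465 to 32579239), Fis1 on 5 (136953275 to 136966234), Mff on 1 (82724890 to 82752394), Mief1 on 15 (80234018 to 80253371), Mief2 on 11 (60728398 to 60732951) and Yme1l1 on 2 (23156369 to 23199260), all on the plus strand. Fis1 has the shortest transcripts, at most 948 nt, against at most 6230 nt for Opa1. An antisense gene, Gm49521, overlaps 9757 bp of Dnm1l, and a same-strand coding gene, AC140267.1, overlaps 213 bp of Mief1. Neither of these IDs is among the genes listed here. The use of strand in counting is not given in the sources used here, so Dnm1l and Mief1 may include reads of those genes.

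The 4 genes that fell on HFD over both genotypes (Fis1, Yme1l1, Opa1 and Mfn1, described further on) are shown with the bases before their transcription start, to let their promoters be compared. The sequences are from RefSeq on GRCm38.p6, plus strand, 5′ to 3′, and end before the first base of the gene in GENCODE. The RefSeq start equals that base for Opa1 and Fis1 and lies 17 bases inside the gene for Mfn1 and 136 bases inside it for Yme1l1, which leaves 233 and 114 bases to print. Capitals mark a match to 1 of 4 motifs, which were searched on both strands over the 250 bases before the RefSeq start of all 32851 promoters of the table.
Mfn1 (chr3:32529232-32529464): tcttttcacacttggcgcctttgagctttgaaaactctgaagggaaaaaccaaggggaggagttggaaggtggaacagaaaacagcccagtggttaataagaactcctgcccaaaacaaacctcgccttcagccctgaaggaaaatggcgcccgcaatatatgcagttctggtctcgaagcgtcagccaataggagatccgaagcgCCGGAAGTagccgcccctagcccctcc
Opa1 (chr16:29579084-29579333): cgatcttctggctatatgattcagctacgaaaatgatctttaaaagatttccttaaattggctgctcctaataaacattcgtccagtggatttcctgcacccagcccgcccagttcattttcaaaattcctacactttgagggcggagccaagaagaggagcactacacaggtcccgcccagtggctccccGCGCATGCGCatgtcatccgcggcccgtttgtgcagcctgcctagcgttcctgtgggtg
Fis1 (chr5:136953025-136953274): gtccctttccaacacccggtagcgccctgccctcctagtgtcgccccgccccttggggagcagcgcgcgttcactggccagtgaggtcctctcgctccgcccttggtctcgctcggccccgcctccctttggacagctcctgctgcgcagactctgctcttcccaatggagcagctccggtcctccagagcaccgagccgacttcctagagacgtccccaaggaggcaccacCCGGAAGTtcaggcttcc
Yme1l1 (chr2:23156255-23156368): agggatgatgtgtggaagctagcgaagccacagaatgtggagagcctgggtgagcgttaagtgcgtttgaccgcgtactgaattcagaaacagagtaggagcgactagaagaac
The capitals are CCGGAAGT, the motif of GABPA, in Mfn1 and Fis1, and a match to the motif of NRF1 (GCGCA, any base, GCGC) in Opa1. Both factors are known to act on many nuclear genes of mitochondrial proteins. Counted to the GENCODE start, the GABPA motif begins 27 bases before Mfn1 and 18 before Fis1, and the NRF1 motif 59 before Opa1. Yme1l1 held none of the 4 motifs in the 250 bases before its RefSeq start. For each of the 10 genes 1 window was used, that of the RefSeq start nearest its GENCODE start, while shares are over all promoters without such a choice. These sets are unlike, and enrichment was not tested. Among the 10 genes, CCGGAAGT was in the window of 3 (Mfn1, Fis1 and Mief1) and in 2.88% of all promoters. The NRF1 motif was in 2 (Opa1 and Oma1) and in 3.74% of all promoters. The E-box CACGTG was in 1 (Mief2) and in 6.02%, and AAGGTCA, the half-site of oestrogen-related receptors, was in none and in 4.08%.

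The comparison of iKO with WT asked whether loss of ACC2 changed transcripts of the fission and fusion machinery. On either diet none of the 10 genes passed the test across all genes, and the differences were small. On chow limma called 0 of 10 members at an adjusted p under 0.05, where it called 1.06% of all genes tested, and 0 of 10 at an unadjusted p under 0.05, where it called 13.5%. On HFD it called 0 of 10, where it called 0.172% of all genes, and 1 of 10, Mief1, at an unadjusted p under 0.05, against 15.2%. Log2 fold changes ran from -0.09 to 0.10 on chow (median 0.03, against 0.05 for all genes) and from -0.08 to 0.15 on HFD (median 0.01, against 0.06 for all genes). Their 95% intervals reached from -0.19 to 0.23 on chow and from -0.21 to 0.27 on HFD. These values are from FPKM as deposited and depended on the scaling between libraries. Under median-of-ratios scaling they ran from -0.15 to 0.05 on chow and from -0.16 to 0.096 on HFD. Under upper-quartile scaling they ran from -0.17 to 0.033 on chow and from -0.18 to 0.072 on HFD. On HFD all members but Mief1 were then below 0 under either scaling.

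Opa1 was the fusion gene with the clearest genotype difference. On chow it stood at 48.29, 47.93, 47.15, 46.95 and 48.86 FPKM in iKO, against 51.22, 50.68, 49.47, 53.1 and 51.29 FPKM in WT. All 5 iKO libraries lay below all 5 WT libraries, a separation that 1 of 10 members and 3.19% of all genes tested showed on chow. The log2 fold change was -0.09 (SE 0.05, limma adjusted p = 0.371), and -0.15 and -0.17 under median-of-ratios and upper-quartile scaling between libraries (adjusted p = 0.162 and 0.112). The exact two-sided permutation test gave p = 0.00794, the smallest that 5 against 5 libraries allow, as 1 of 40 such tests on single members and without adjustment. On HFD Opa1 stood at 46.31, 44.42, 45.34, 44.98 and 45.64 FPKM in iKO, against 47.93, 48.97, 45.72, 48.72 and 39.89 FPKM in WT. On HFD 0 of 10 members, and 3.24% of all genes, had groups that did not overlap. For Opa1 the WT library RT19 was lowest at 39.89 FPKM, and the other 4 WT libraries lay above 4 of the 5 iKO libraries.

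Over both diets the log2 fold change of Opa1 was -0.06 (SE 0.03, limma adjusted p = 0.251). Limma called 0 of 10 members over both diets, where it called 5.17% of all genes, and 1 of 10, Mief1, at an unadjusted p under 0.05, against 25.1%. The result for Opa1 depended on the scaling between libraries and on RT19. Under median-of-ratios scaling Opa1 fell by 0.12 on the log2 scale (adjusted p = 0.0432), under upper-quartile scaling by 0.14 (adjusted p = 0.0169), and without RT19 by 0.085 (adjusted p = 0.0442). RT19 had the highest FPKM total of all libraries, 874125.34. It also had the lowest median deviation of the 10 members from their group means, -0.092 on the log2 scale. Its part in the result beyond these fits was not tested.

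Mfn1 and Mfn2 overlapped between genotypes on both diets. Mfn1 averaged 92.4 FPKM ± 2.77 in iKO on HFD and 92.2 ± 3.77 in WT on HFD; on chow it averaged 96.2 ± 3.72 in iKO and 98.7 ± 2.66 in WT (SD, n = 5 each). Mfn2 averaged 167.5 ± 10.1 FPKM in iKO on HFD and 165.2 ± 8.65 in WT on HFD. On chow Mfn2 averaged 170.3 ± 13.98 FPKM in iKO and 176.0 ± 5.16 in WT, with iKO library RT7 highest at 191.81 FPKM.

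Among the fission genes, Mief1 had the largest genotype difference in FPKM as deposited. On HFD it stood at 4.83, 5.17, 4.64, 4.56 and 4.74 FPKM in iKO, against 4.29, 4.69, 4.36, 4.06 and 3.65 FPKM in WT. The groups overlapped, since 1 WT library lay above 2 iKO libraries. The log2 fold change was 0.15 (95% interval 0.04 to 0.27, limma adjusted p = 0.236), and over both diets it was 0.11 (SE 0.04, limma adjusted p = 0.0958). Under median-of-ratios and upper-quartile scaling these became 0.096 and 0.072 on HFD and 0.060 and 0.041 over both diets, and Fis1 on HFD then had the larger differences, -0.16 and -0.18 (limma adjusted p = 0.353 and 0.287). Fis1 on chow stood at 69.01, 69.89, 67.09, 81.04 and 65.42 FPKM in iKO, against 63.59, 69.63, 67.66, 62.85 and 63.15 FPKM in WT, with a log2 fold change of 0.10 (SE 0.06, limma adjusted p = 0.452). The groups overlapped and RT7, at 81.04 FPKM, stood apart. The log2 fold change of Fis1 on chow was 0.054 without RT7, and 0.05 and 0.033 under the scalings. Over all 20 libraries the coefficient of variation of Dnm1l was the lowest of the 10, at 4.25% against 4.33% for Mfn1. Dnm1l averaged 32.4 ± 0.404 FPKM in iKO on HFD and 32.4 ± 1.49 in WT on HFD. On chow Dnm1l averaged 33.1 ± 1.91 in iKO and 33.0 ± 1.60 in WT. Mff and Mief2 overlapped between genotypes on both diets as well. The 8 fibroblast markers summed to 319.2 to 734.7 FPKM in iKO libraries and 335.1 to 406.4 FPKM in WT libraries, and the 6 macrophage markers to 43.52 to 73.16 FPKM in iKO and 40.35 to 52.96 FPKM in WT. Their part in the genotype differences was not tested.

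The OPA1-cutting proteases did not separate the genotypes. Yme1l1 on chow stood at 18.9, 19.27, 20.59, 18.49 and 20.41 FPKM in iKO, against 20.58, 17.58, 17.1, 17.85 and 18.21 FPKM in WT. All 5 iKO libraries lay above 4 of the 5 WT libraries, and WT library RT1 lay just below the highest iKO library (log2 fold change 0.09, SE 0.05, limma adjusted p = 0.457, and 0.041 and 0.025 under the scalings). Oma1 averaged 13.9 ± 0.850 FPKM in iKO on HFD and 13.6 ± 1.05 in WT on HFD; on chow it averaged 14.3 ± 0.615 in iKO and 14.2 ± 0.894 in WT.

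**Figure D2:**
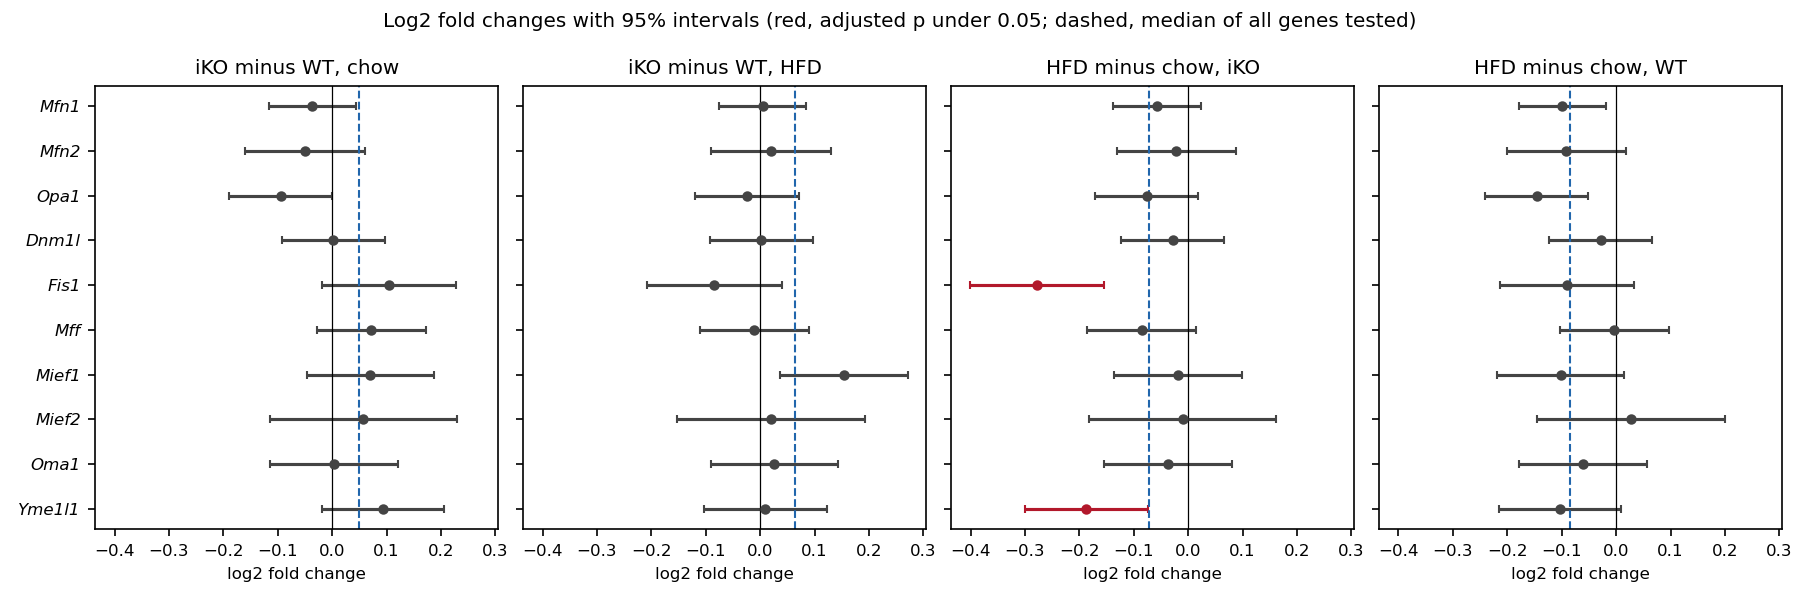
Log2 fold changes (x axis, log2(FPKM + 1) scale) of the 10 genes with 95% intervals for the genotype on each diet (iKO minus WT) and for the diet within each genotype (HFD minus chow). Red points have an adjusted p under 0.05 and dashed lines mark the median of all genes tested. Fis1 and Yme1l1 in iKO between diets are the red points. The members' median between diets was -0.05 in iKO and -0.09 in WT, against dashed lines at -0.07 and -0.08.

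The comparison of HFD with chow asked how the diet changed the same transcripts in each genotype. In iKO hearts Fis1 and Yme1l1 fell on HFD. In WT hearts none of the 10 passed the test, although 9 of 10 had a fold change below 0 in FPKM as deposited. Most transcripts of these tables were lower on HFD, with a median log2 fold change over all genes of -0.07 in iKO and -0.08 in WT. The members' medians were -0.05 in iKO and -0.09 in WT.

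In iKO limma called 2 of 10 members, both lower, where it called 8.36% of all genes lower. Fis1 stood at 56.69, 54.47, 57.04, 58.97 and 62.06 FPKM in iKO on HFD, against 69.01, 69.89, 67.09, 81.04 and 65.42 FPKM in iKO on chow. Every HFD library lay below every chow library, and Fis1 fell by 0.28 on the log2 scale (SE 0.06, limma adjusted p = 0.00487). Leaving out each library in turn kept the call, with log2 fold changes of -0.30 to -0.23 and adjusted p of at most 0.0171. Yme1l1 stood at 16.86, 17.69, 17.75, 17.48 and 15.43 FPKM in iKO on HFD, against 18.9, 19.27, 20.59, 18.49 and 20.41 FPKM in iKO on chow. These groups did not overlap, and Yme1l1 fell by 0.19 (SE 0.05, limma adjusted p = 0.0311). Its call was lost without any single one of RT4, RT6, RT9, RT11 and RT20 (highest adjusted p = 0.0901). Without both RT4, which was high in atrial markers, and RT7, the shallowest library, the 2 calls were lost, with adjusted p = 0.0503 for Fis1 and 0.0546 for Yme1l1. Opa1 was the third member whose groups did not overlap, at 44.42 to 46.31 FPKM in iKO on HFD and 46.95 to 48.86 FPKM in iKO on chow (adjusted p = 0.314), and 7.8% of all genes showed such a separation.

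In WT limma called 0 of 10 members, where it called 8.04% of all genes. At an unadjusted p under 0.05 it called 2 of 10, Opa1 and Mfn1, against 25.6% of all genes. Opa1 stood at 47.93, 48.97, 45.72, 48.72 and 39.89 FPKM in WT on HFD, against 51.22, 50.68, 49.47, 53.1 and 51.29 FPKM in WT on chow. The groups did not overlap, as in 10.8% of all genes tested. The log2 fold change was -0.15 (SE 0.05, limma adjusted p = 0.0510), and the exact permutation test gave p = 0.00794. Opa1 passed limma's test with array quality weights (adjusted p = 0.0341), without RT14 (0.0426) and without RT18 (0.0459). Without RT19 its log2 fold change was -0.095 (0.0883), and under median-of-ratios and upper-quartile scaling it was -0.046 and -0.031 (0.726 and 0.838). Mfn1 had a log2 fold change of -0.10 (SE 0.04, limma adjusted p = 0.112), which turned to 0.0027 and 0.018 under the scalings. Fis1 overlapped between diets in WT, at 57.65, 56.27, 65.28, 59.8 and 68.44 FPKM on HFD and 63.59, 69.63, 67.66, 62.85 and 63.15 FPKM on chow.

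Over both genotypes, with 10 libraries per diet, 4 of 10 members fell on HFD and none rose, where limma called 23.3% of all genes lower, and the sign of Mfn1 turned under both scalings tried. These fits use the same libraries as the comparisons within genotypes. Fis1 averaged 57.8 FPKM ± 2.85 in iKO and 61.5 ± 5.18 in WT on HFD, against 70.5 ± 6.15 in iKO and 65.4 ± 3.08 in WT on chow (log2 fold change -0.18, SE 0.04, limma adjusted p = 0.00325). Yme1l1 fell by 0.15 (adjusted p = 0.00848), Opa1 by 0.11 (adjusted p = 0.0153) and Mfn1 by 0.078 (adjusted p = 0.0394) on the log2 scale. The call of Mfn1 was lost without any single one of RT1, RT3, RT6, RT7, RT8, RT10, RT13, RT15, RT17, RT18 and RT19 (highest adjusted p = 0.0716), and also without both RT1 and RT4 (0.0704), the libraries highest in atrial markers. The other 6, among them Mfn2, Dnm1l and Mff, did not pass the test.

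The tables as a whole moved in the same direction as these 4 genes, and none of the 4 calls held once the libraries were rescaled. Between diets, all genes together had a median log2 fold change of -0.079 as deposited, -0.005 under median-of-ratios scaling and 0.003 under upper-quartile scaling. Under these scalings Fis1 had log2 fold changes of -0.092 and -0.082 (adjusted p = 0.222 and 0.350), and Yme1l1 of -0.056 and -0.047 (0.393 and 0.495). Opa1 had -0.019 and -0.0098 (0.777 and 0.900), and Mfn1 turned to 0.014 and 0.024 (0.825 and 0.740). Fis1 in iKO alone had -0.19 under both scalings (0.0905 and 0.151), and Yme1l1 in iKO -0.11 and -0.10 (0.318 and 0.351). The 15 genes listed with mitochondrial symbols held 34.24% to 36.47% of all FPKM in HFD libraries and 30.08% to 33.87% in chow libraries, without overlap. The 7 cardiomyocyte markers summed to 19810 to 25360 FPKM in HFD libraries and 25300 to 29130 FPKM in chow libraries, overlapping through RT19. Atrial markers, 4 genes, summed to 21.38 to 115.3 FPKM in HFD libraries and 57.8 to 691.4 FPKM in chow libraries. The part of these shifts in the falls on HFD was not tested.

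**Figure D3:**
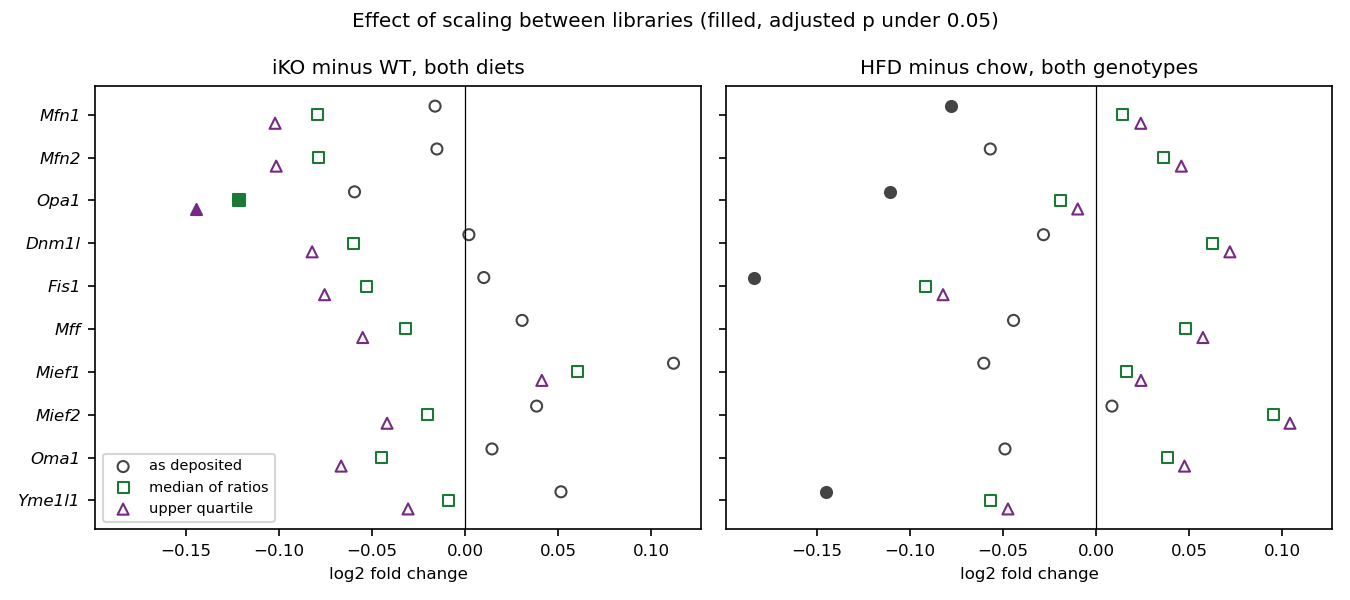
Log2 fold changes (x axis) of the 10 genes for iKO minus WT over both diets and for HFD minus chow over both genotypes, from FPKM as deposited (circles) and after median-of-ratios (squares) or upper-quartile scaling (triangles). Filled symbols have an adjusted p under 0.05. Rescaling moves every gene to the left in the genotype panel, where Opa1 becomes filled, and to the right in the diet panel, where the filled symbols of Fis1, Yme1l1, Opa1 and Mfn1 become open.

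The interaction asked whether the diet acted differently in the genotypes. Limma called 0 of 10 members, where it called 0.0313% of all genes. Fis1 alone had an unadjusted p under 0.05, against 3.76% of all genes, with a difference of -0.19 between the diet effects in iKO and WT (SE 0.08, unadjusted p = 0.0358, limma adjusted p = 0.999). The call of Fis1 in iKO and its absence in WT are therefore not shown to differ.

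Ratios between genes of the same library do not depend on scaling between libraries and are given as a description. The summed FPKM of the 5 fission genes over that of the 3 fusion genes averaged 0.571 ± 0.0228 in iKO on HFD, 0.585 ± 0.0342 in WT on HFD, 0.610 ± 0.0108 in iKO on chow and 0.559 ± 0.0157 in WT on chow (SD, n = 5 each). On chow the iKO libraries lay between 0.597 and 0.623 and the WT libraries between 0.537 and 0.576, without overlap. Of single genes tested, 3.19% separated in this way on chow, and no such share was computed for ratios of sums. On HFD the ranges overlapped, at 0.548 to 0.597 in iKO and 0.555 to 0.642 in WT. On HFD the fission genes summed to 174.0 ± 3.03 FPKM in iKO and 177.3 ± 6.11 in WT, and the fusion genes to 305.3 ± 12.4 FPKM in iKO and 303.6 ± 13.8 in WT. On chow the fission genes summed to 191.6 ± 7.92 FPKM in iKO and 182.2 ± 3.80 in WT, and the fusion genes to 314.4 ± 16.0 FPKM in iKO and 325.8 ± 7.84 in WT. Fis1 and Mff, the most abundant fission genes, and Mfn2 and Mfn1 carry most of these sums. Between diets the iKO ratios did not overlap either, though narrowly, with 0.5966 as the highest on HFD and 0.5972 as the lowest on chow. Of single genes tested, 7.8% separated between diets in iKO.

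The other ratios overlapped between all groups. Oma1 over Yme1l1, the balance of the OPA1 proteases, averaged 0.819 ± 0.0929 in iKO on HFD, 0.808 ± 0.0837 in WT on HFD, 0.732 ± 0.0447 in iKO on chow and 0.783 ± 0.0708 in WT on chow. Mfn1 over Mfn2 averaged 0.553 ± 0.0293 in iKO on HFD, 0.559 ± 0.0271 in WT on HFD, 0.567 ± 0.0364 in iKO on chow and 0.561 ± 0.0147 in WT on chow.

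**Figure D4:**
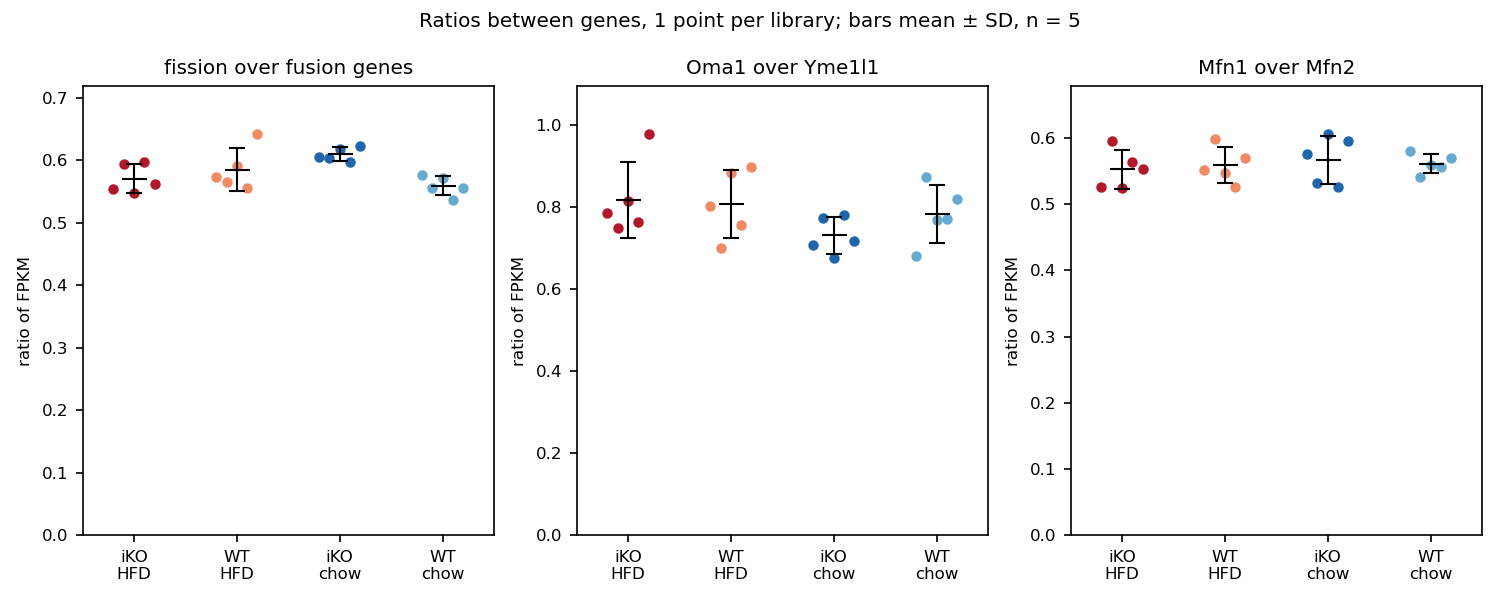
Ratios of FPKM (linear axes from 0) in each library of iKO and WT hearts on HFD and on chow, with points for libraries and bars for mean ± SD, n = 5 per group. The ratio of fission to fusion genes in iKO on chow (0.597 to 0.623) lay above that in WT on chow (0.537 to 0.576). It also lay narrowly above that in iKO on HFD (lowest 0.5972 against highest 0.5966). No share of such separations among other ratios was computed. The ratios of Oma1 to Yme1l1 and of Mfn1 to Mfn2 overlapped between groups.

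Within groups the 10 genes did not vary as 1 block. After each gene was centred on its group means, 30 of the 45 pairs of members had a Pearson r above 0 over the 20 libraries (median 0.29). The highest r was that of Mief2 with Oma1 (0.75, Spearman's rho 0.77, and r = 0.67 without the 2 libraries farthest from the median of Mief2). The lowest was that of Fis1 with Yme1l1 (r = -0.66, rho = -0.70, and r = -0.57 without RT7 and RT19), the genes that both fell on HFD in iKO. These pairs are the extremes of 45 and are given without a p, and the libraries share their depth and scaling. Among 11187 other tested genes with a mean of at least 1 FPKM, those most like Mfn2 by the same measure were Cluh, which encodes an RNA-binding protein of mitochondrial transcripts (r = 0.95), and Tmem201 (r = 0.94). Opa1 was most like Ubr3 (r = 0.92) and Spag9 (r = 0.89), and Fis1 most like G6pc3 and the complex I subunit gene Ndufa11 (r = 0.89 and 0.88). Mief1 was most like 9930021J03Rik (r = 0.90). The weakest best match was that of Oma1 with Lmnb2 (r = 0.76).

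Other genes of mitochondrial dynamics showed small differences as well. Of 38 genes listed by role, 37 were found and 34 tested. In iKO against WT, on chow, on HFD and over both diets, limma called 0 of the 34. At an unadjusted p under 0.05 it called 0 on chow, 5 on HFD and 4 over both diets, against 13.5%, 15.2% and 25.1% of all genes. Of these, 0, 2 and 2 were lower in iKO. Under median-of-ratios scaling 6, 8 and 12 were lower at that threshold, and under upper-quartile scaling 6, 14 and 13. The share of all genes lower at that threshold was not computed. Over both diets, Chchd3 was lower under median-of-ratios scaling, where limma called 2.08% of all genes lower, and Chchd3 and Rhot2 under upper-quartile scaling, where it called 3.02% lower. Between diets over both genotypes 11 of the 34 fell and 1, Phb2, rose, where limma called 23.3% of all genes lower and 2.55% higher. The median log2 fold change of the 34 was -0.077, against -0.079 for all genes, and turned to 0.011 under median-of-ratios and 0.021 under upper-quartile scaling. Among 14 genes of inner membrane shape and OPA1 processing, 5 fell and 1 rose. Samm50, of the outer membrane sorting machinery, averaged 90.0 ± 4.95 FPKM in iKO and 93.5 ± 4.30 in WT on HFD, against 102.5 ± 4.88 in iKO and 107.5 ± 3.42 in WT on chow (log2 fold change -0.19, SE 0.03, limma adjusted p = 0.000178). Immt and Chchd3, which encode subunits of the cristae-organising MICOS complex, fell by 0.10 and 0.12 (adjusted p = 0.00166 and 0.00138), and Stoml2, a cardiolipin-binding scaffold of the inner membrane, fell by 0.17 (adjusted p = 0.00253). Phb2, a prohibitin that restrains OPA1 processing, was named after its values were seen and averaged 88.7 ± 4.20 FPKM in iKO and 90.5 ± 5.01 in WT on HFD, against 81.3 ± 4.11 in iKO and 84.0 ± 2.11 in WT on chow (log2 fold change 0.11, SE 0.03, limma adjusted p = 0.0117).

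Of 11 tested fission cofactors 3 fell over both genotypes, of 5 outer membrane fusion cofactors 2 fell and of 4 genes of mitochondrial transport 1, Rhot2, fell. Within iKO 6 of the 34 fell on HFD, among them Mtch2 by 0.20, Samm50 by 0.19, Stoml2 by 0.21 and Chchd3 by 0.13, where 8.36% of all genes fell. Within WT 4 of the 34 fell, Samm50 by 0.20, Immt by 0.11, Romo1 by 0.24 and Rhot2 by 0.19, where limma called 7.27% of all genes lower. Under median-of-ratios and under upper-quartile scaling limma called 0 of the 34 lower between diets over both genotypes (3 and 1 at an unadjusted p under 0.05), and 4 rose in both, Phb2, Rhot1, Slc25a46 and Trak2, named after their values were seen. Of all genes limma then called 5.16% lower and 5.23% higher under median-of-ratios scaling, and 4.38% lower and 5.76% higher under upper-quartile scaling. Within iKO and within WT it likewise called 0 of the 34 lower on HFD under either scaling. It called Akap1 and Phb2 higher in iKO and Phb2 higher in WT, named after their values were seen. Of all genes it called 1.97% lower and 2.55% higher in iKO under median-of-ratios scaling, and 1.57% and 2.38% under upper-quartile scaling. In WT it called 1.28% lower and 1.38% higher, and 0.986% and 1.5%.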

How the data were processed

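The deposited values are FPKM per gene, 1 table per library, made by the authors and printed to 2 decimals. The submitters' processing notes name the build mm9 and the tools RSEM, Bowtie2 and DESeq2, with no version. Of the 25052 Ensembl IDs, 19995 match GENCODE M21, which is on GRCm38 and not mm9, with their version. In any version 24938 match, and the versions of Dnm1l and Mief1 are among those that differ. Loci are those of the matching ID on GRCm38. Tests used log2(FPKM + 1), a scale on which changes of low genes are understated. A gene was kept where 5 or more libraries reached 0.5 FPKM. Limma 3.58.1 in R 4.3.3, with an intensity trend and robust moderation, was fitted to all 20 libraries as 4 group means, with Benjamini-Hochberg adjustment over 12775 genes and calls at 0.05. The fit was also run on simulated data without a shift between libraries, so that run does not bear on the scaling. Exact permutation tests used scipy 1.17.1. Each library is 1 mouse, and no libraries were identical.

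Depth was estimated from FPKM steps of 1 read in single-transcript genes of 130 to 450 nt, of which 59.0% to 75.0% of values were whole to within 0.05 reads. Whole reads were not recovered for most genes, so no count test was run. The named genes are the 10 members, Acacb, Esr1, the 2 genes most like each member, and up to 4 called genes of the other lists per comparison. A log2 fold change of a member is given where its unadjusted p was under 0.1. Alternatives were a pseudocount of 0.1, no filter, 2 scalings, array quality weights, the 10 libraries of a comparison alone, and left-out libraries. The members and lists were chosen with earlier results of these data known.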

Additional observations from a re-analysis of the deposited data

Results flagged for a closer look

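In 52 sets of 5 libraries (10 genes and 3 ratios in 4 groups), 2 held a library whose gap to its nearest neighbour was more than 0.71 of the whole range, where chance gives about 1 in 20. Fis1 in iKO on chow was 81.04 FPKM in RT7, against 65.42 to 69.89 FPKM in the other 4 libraries. The fall of Fis1 on HFD in iKO kept its call without RT7. The ratio of Oma1 to Yme1l1 in iKO on HFD was 0.979 in RT20, against 0.748 to 0.815 in the other 4.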

How the results depend on the processing

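The counts of members called between genotypes on chow, between genotypes on HFD and for the interaction stayed at 0 under every alternative run. For diet in iKO, 2 members became 1 without the filter on low values, 1 with the 10 libraries of the comparison alone, 0 without both RT4 and RT7, 0 under median-of-ratios scaling, 0 under upper-quartile scaling, and 1 to 2 without single libraries. For diet in WT, 0 became 1 (Opa1) with array quality weights and 0 to 1 without single libraries. For diet over both genotypes, 4 became 0 under either scaling, 3 (Mfn1 lost) without the filter on low values, without both RT1 and RT4 and without both RT4 and RT7, and 3 to 4 without single libraries. For genotype over both diets, 0 became 1 (Opa1) under either scaling and 0 to 1 without single libraries. Changes of sign under scaling are given first for member values with an unadjusted p under 0.1. Both scalings reversed Mfn1 for diet in WT (0.0027 under median of ratios and 0.0182 under upper quartile) and Mfn2 for diet in WT (0.0101 and 0.0258). They also reversed Mfn1 for diet over both genotypes (0.0145 and 0.0241). Under upper quartile only, Yme1l1 for diet in WT (0.0085) and Mff for diet in iKO (0.0017) were reversed. Genotype differences with a larger p changed sign as well. On HFD those of Dnm1l, Mfn1, Mfn2, Mief2, Oma1 and Yme1l1 turned from above to below 0 under both scalings. On chow those of Dnm1l and Oma1 did so, and that of Mief2 under upper quartile only. Of 1500 values of all 10 members under the alternatives, 1287 kept sign and side of the threshold, and 174 changed sign. The group means of the ratios moved by less than 1 SD without any single library. Leaving 1 library out of groups of this size cannot move a mean by 1 SD, whatever the values. That limit therefore does not show whether the ratios depend on single libraries. Beyond the rescaling itself, the cause of the changes in calls and signs was not tested. No paired analysis was possible because the library numbers RT1 to RT20 are not shared between groups. The depth estimate rests on short genes and gives no error for a single FPKM value.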
